A study of Drosophila melanogaster with 9 samples.

Results

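YHet is the part of the *Drosophila melanogaster* Y chromosome that the genome build dm3 holds as a separate heterochromatic sequence. It was tiled in 500-bp steps from its first position, and reads reached position 346959 in the files. This gave 694 tiles, out of 259289 tiles on all sequences that held reads in both samples. A tile without a read in any of the 8 ChIP-seq libraries was counted as unmappable, which left 444 of the 694 YHet tiles (64.0%, 95% Wilson interval 60.3 to 67.5). For comparison, 4004 of the 5110 tiles of 3LHet, the heterochromatic sequence of the left arm of chromosome 3, were mappable by the same criterion (78.4%, 77.2 to 79.5).

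The study mapped H3K4me3, H3K27me3, H3K36me3 and RNA polymerase II (Pol II) by ChIP-seq in *bam* testis and in S2 cells, and RNA-seq of S2 cells completed the 9 libraries analysed here. *bam* testis came from flies carrying the alleles *bam1* and *bam114-97*, with 200 pairs of testes pooled for each ChIP. Germ cells in these testes stop before the spermatocyte stage, and the tissue also holds somatic cells. S2 cells are an established embryonic *Drosophila* cell line grown in culture, so the comparison is between a dissected male tissue and 1 line. The antibodies were the same in both samples, but testes were fixed with formaldehyde and sonicated, whereas S2 cells were taken up in a digestion buffer. Each combination of sample and target had 1 library, so no difference below has a replicate check, no test between samples was made, and the intervals cover counting error only.

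The fly Y chromosome is present once in male cells, is almost wholly heterochromatic and consists largely of repeated sequence. It carries a small number of genes needed for male fertility, among them genes for dynein heavy chains of the sperm tail, and several of these genes have very large introns and are transcribed in spermatocytes. H3K4me3 is a mark of active promoters, H3K36me3 of transcribed gene bodies and H3K27me3 of Polycomb silencing. No annotation of dm3 was used, so the YHet tiles are given by position and not by gene, and the labelled tissue and line were not checked against marker genes.

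Reads on YHet were denser in *bam* testis than in S2 cells for all 4 targets. Density is the number of reads per kb of mappable tiles per 1000000 kept reads of the library (RPM per kb). In *bam* testis, YHet held 1013 H3K4me3 reads, a density of 3.24 (3.05 to 3.45), against 148 reads and a density of 0.533 (0.451 to 0.626) in S2 cells. The ratio of both densities was 6.08 (exact interval 5.12 to 7.28). H3K36me3 gave 1233 reads and 3.25 (3.08 to 3.44) in *bam* testis, and 545 reads and 0.815 (0.748 to 0.886) in S2 cells, a ratio of 4.00 (3.61 to 4.43). H3K27me3 gave 1712 reads and 2.07 (1.97 to 2.17) in *bam* testis, and 435 reads and 0.705 (0.640 to 0.774) in S2 cells, a ratio of 2.93 (2.64 to 3.27). The difference was smallest for Pol II, with 641 reads and 2.15 (1.99 to 2.32) in *bam* testis, and 489 reads and 1.14 (1.05 to 1.25) in S2 cells, a ratio of 1.88 (1.67 to 2.12). None of the 4 pairs of intervals overlapped. In such bulk chromatin, fewer cells or copies that hold the sequence and less signal per copy cannot be told apart. The set of sequences used for alignment may also differ between samples, and most S2 cell reads on YHet carried mismatches. Whether either bears on the S2 cell densities was not tested.

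**Figure D1:**
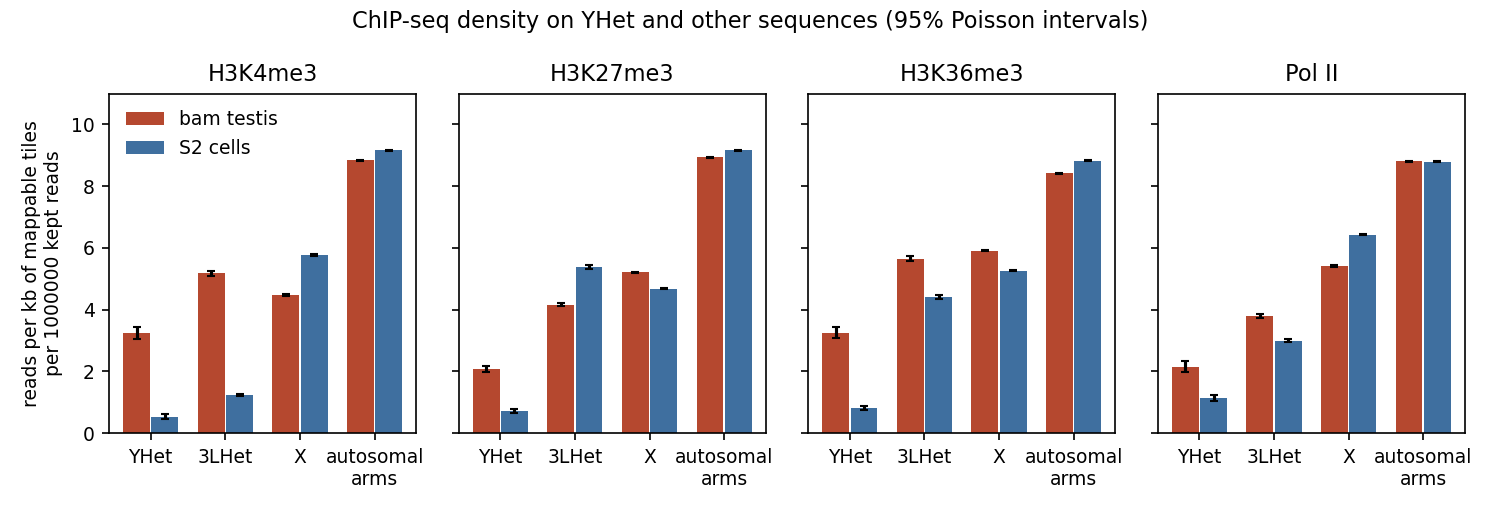
Bars give the density of kept ChIP-seq reads (RPM per kb of mappable tiles) on YHet, 3LHet, the X arm and the autosomal arms (2L, 2R, 3L and 3R), in *bam* testis (red) and S2 cells (blue), with 95% Poisson intervals. YHet stood at 2.07 to 3.25 in *bam* testis and at 0.533 to 1.14 in S2 cells, whereas on the autosomal arms both samples stood close together.

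The autosomal arms did not show this difference, with ratios of *bam* testis over S2 cells between 0.955 for H3K36me3 and 1.00 for Pol II. The bars for YHet and the arms in the plot of densities show both patterns side by side. On 3LHet the ratio was 4.20 for H3K4me3, 1.28 for H3K36me3, 0.772 for H3K27me3 and 1.26 for Pol II. Higher H3K4me3 density in *bam* testis was thus shared by YHet and 3LHet, while for H3K27me3 both sequences differed in direction. Each YHet ratio divided by that of 3LHet was 1.45 for H3K4me3 (1.21 to 1.73), 3.12 for H3K36me3 (2.82 to 3.46), 3.80 for H3K27me3 (3.41 to 4.22) and 1.49 for Pol II (1.32 to 1.68). Every one of these intervals lay above 1. Read against 2LHet, 2RHet and 3RHet in turn, the corresponding quotients for YHet were between 1.50 and 4.50.

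Within each library, YHet was less dense than 3LHet. In *bam* testis the density of YHet was 0.627 times that of 3LHet for H3K4me3 (0.588 to 0.669), 0.577 times for H3K36me3 (0.544 to 0.611), 0.497 times for H3K27me3 (0.473 to 0.521) and 0.568 times for Pol II (0.523 to 0.615). In S2 cells the same ratio was 0.433 for H3K4me3 (0.364 to 0.510), 0.185 for H3K36me3 (0.170 to 0.201), 0.131 for H3K27me3 (0.119 to 0.144) and 0.381 for Pol II (0.348 to 0.418). The values differed by target in both samples, from 0.497 to 0.627 in *bam* testis and from 0.131 to 0.433 in S2 cells. Against the autosomal arms, YHet stood at 0.232 to 0.386 times their density in *bam* testis and at 0.0582 to 0.130 times in S2 cells. The X arm, also present once in male cells, stood at 0.505 to 0.701 times the autosomal arms in *bam* testis and at 0.511 to 0.730 times in S2 cells.

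YHet reads of S2 cells also matched the build less well than other reads of the same libraries. The files give for each ChIP-seq read whether it matched with no, 1 or 2 mismatches. Of the H3K4me3 reads on YHet, 62.8% (59.8 to 65.7) had no mismatch in *bam* testis, against 16.9% (11.7 to 23.7) in S2 cells. For H3K27me3 the share was 34.4% (32.2 to 36.7) in *bam* testis and 20.9% (17.4 to 25.0) in S2 cells. Pol II gave 44.1% (40.4 to 48.0) in *bam* testis and 19.8% (16.5 to 23.6) in S2 cells. H3K36me3 was the exception between samples, with 16.1% (14.2 to 18.3) in *bam* testis and 17.4% (14.5 to 20.8) in S2 cells. The *bam* testis H3K36me3 library had few reads without mismatch on the 6 arms too, 14.2%, against 40.3% in S2 cells.

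Set against other sequences of the same library, YHet of *bam* testis was close to its surroundings and YHet of S2 cells was not. In *bam* testis the share without mismatch on 3LHet was 62.5% for H3K4me3, 18.0% for H3K36me3, 35.2% for H3K27me3 and 48.0% for Pol II. In S2 cells it was 54.0%, 42.2%, 30.6% and 39.6% on 3LHet in the same order of targets, above the YHet shares of 16.9%, 17.4%, 20.9% and 19.8%. Reads with 2 mismatches made up 57.4% of the H3K4me3 reads on YHet in S2 cells, and 15.3% in *bam* testis. The S2 cell RNA-seq library showed the same order, with 35.9% (26.8 to 46.1) of YHet reads without mismatch, compared with 85.3% on 3LHet and 80.3% on the 6 arms.

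**Figure D2:**
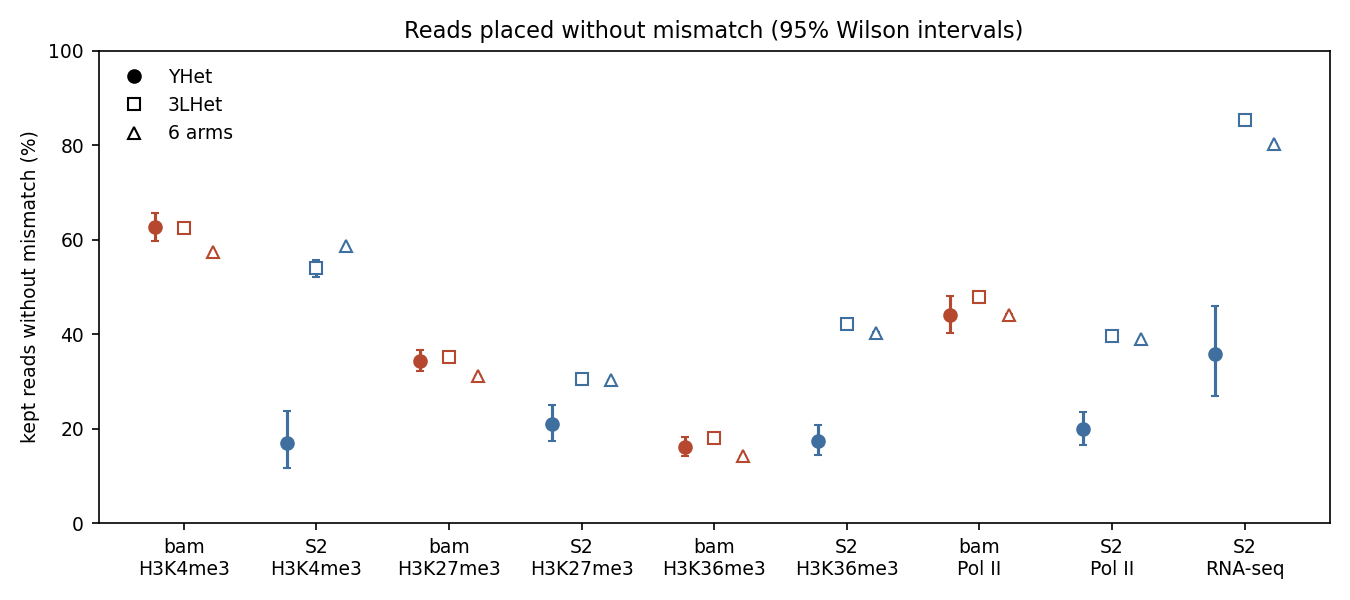
Points give the percentage of kept reads without a mismatch, with 95% Wilson intervals, for YHet (filled circles), 3LHet (squares) and the 6 arms (triangles) in each *bam* testis (red) and S2 cell (blue) library. The YHet point lies near the others of its library in *bam* testis and far below them in all 5 S2 cell libraries, where it is between 16.9% and 35.9%.

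Counting only reads without mismatch enlarged the difference between samples on YHet. H3K4me3 then gave 636 reads in *bam* testis and 25 in S2 cells, a density ratio of 23.0 (15.5 to 35.9) in place of 6.08. The ratio became 10.3 for H3K36me3 (8.02 to 13.3), 4.66 for H3K27me3 (3.73 to 5.87) and 3.69 for Pol II (2.92 to 4.69). On 3LHet the ratios with such reads were 4.95, 1.52, 0.858 and 1.35 in this order of targets, and on the autosomal arms they stayed between 0.941 and 0.987. At least 1 read without mismatch was found in 365 mappable YHet tiles in *bam* testis (82.2%) and in 116 in S2 cells (26.1%). Both sets shared 85 tiles, 73.3% of the S2 cell tiles and 23.3% of the *bam* testis tiles. On 3LHet, 3571 tiles had such a read in *bam* testis (89.2%) and 3374 in S2 cells (84.3%).

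**Figure D3:**
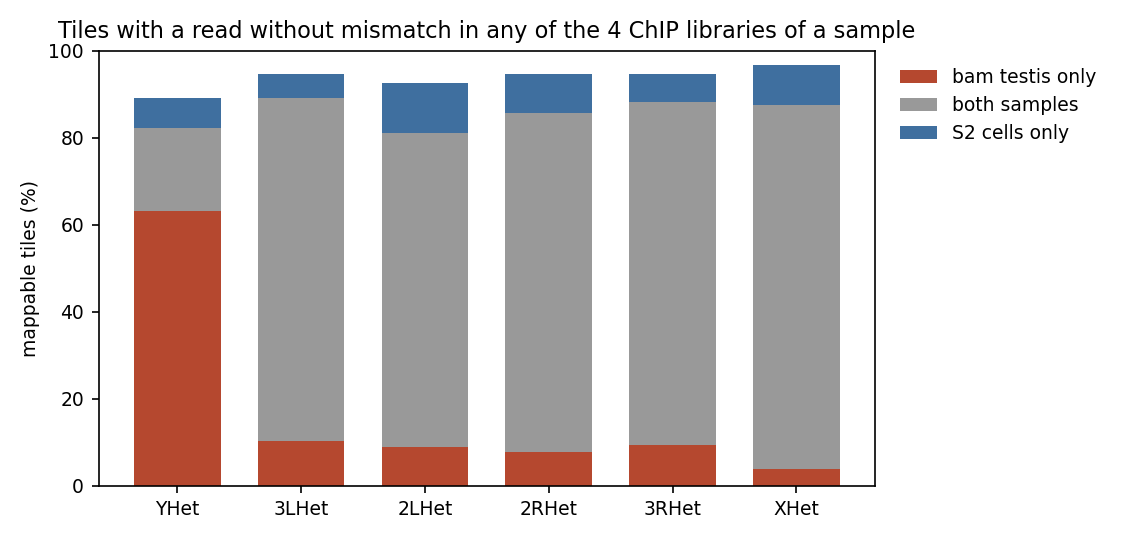
Stacked bars give the percentage of mappable tiles with a read without mismatch in any of the 4 ChIP-seq libraries of *bam* testis only (red), of both samples (grey) or of S2 cells only (blue), for each heterochromatic sequence. On YHet 63.1% of tiles belonged to *bam* testis only and 19.1% to both samples, whereas on 3LHet 78.9% belonged to both.

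The YHet reads were spread over more tiles in *bam* testis. With all kept reads, H3K4me3 was found in 321 of the 444 mappable tiles in *bam* testis (72.3%, 68.0 to 76.3) and in 85 in S2 cells (19.1%, 15.8 to 23.1). H3K27me3 was found in 350 tiles in *bam* testis (78.8%) and in 151 in S2 cells (34.0%), H3K36me3 in 326 (73.4%) and 225 (50.7%), and Pol II in 272 (61.3%) and 167 (37.6%). These shares depend on depth. With every library thinned to the shallowest, the H3K36me3 share was 68.7% in *bam* testis and 29.7% in S2 cells, and the share stayed higher in *bam* testis for each of the other targets. With all kept reads, the H3K4me3 shares on 3LHet were 77.5% in *bam* testis and 31.1% in S2 cells, so this contrast was not particular to YHet. For H3K27me3, H3K36me3 and Pol II the 3LHet shares were 88.9%, 79.8% and 71.0% in *bam* testis and 83.3%, 82.4% and 71.6% in S2 cells. The 10 fullest tiles of a library held 10.9% to 12.0% of its YHet reads in *bam* testis, and 23.5% to 39.9% in S2 cells. All 4 targets had reads in 195 YHet tiles in *bam* testis (43.9%) and in 29 in S2 cells (6.53%), compared with 57.5% and 25.8% on 3LHet. Of the mappable YHet tiles, 117 had reads in *bam* testis only (26.4%), 40 in S2 cells only (9.01%) and 287 in both (64.6%). On 3LHet these shares were 5.92%, 3.70% and 90.4%.

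At the level of single tiles, a tile was called higher in a sample when its density was at least 2 times that of the other, with 1 read against none as the lowest case. By the mean of the 4 targets, 325 YHet tiles were called higher in *bam* testis (73.2%, 68.9 to 77.1), against a background of 25.7% over all mappable tiles and 37.7% on 3LHet. Of the 325 tiles, 117 had reads in *bam* testis only. They were mappable through *bam* testis alone, so their call was fixed in advance. Such tiles made up 26.4% of mappable tiles on YHet and 5.92% on 3LHet, which enters the gap to the background. By target, the tiles called higher in *bam* testis numbered 276 for H3K36me3 (62.2%, background 51.5%), 293 for H3K27me3 (66.0%, background 31.5%) and 217 for Pol II (48.9%, background 34%). With reads without mismatch alone, the H3K36me3 share was 30.3%, near its own background of 29.5%. The H3K4me3 count of 282 (63.5%) was near the background of 67.8%, so it is no result about YHet. In the other direction, 53 YHet tiles were higher in S2 cells by the mean of the 4 targets (11.9%, 9.24 to 15.3; background 7.6%). Of these, 40 had reads in S2 cells only, so their call was fixed in the same way. The share was 16.2% on 2LHet, 15.3% on 2RHet, 9.57% on 3LHet and 11.6% on 3RHet, so it was not particular to YHet. By target, the tiles higher in S2 cells numbered 32 for H3K4me3 (7.21%, background 9.72%), 64 for H3K36me3 (14.4%, background 17.1%), 52 for H3K27me3 (11.7%, background 13.4%) and 95 for Pol II (21.4%, background 17.3%). The intervals of the 3 histone marks held their background, and that of Pol II (17.8 to 25.4) began just above it, so nothing is read from these shares.

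**Figure D4:**
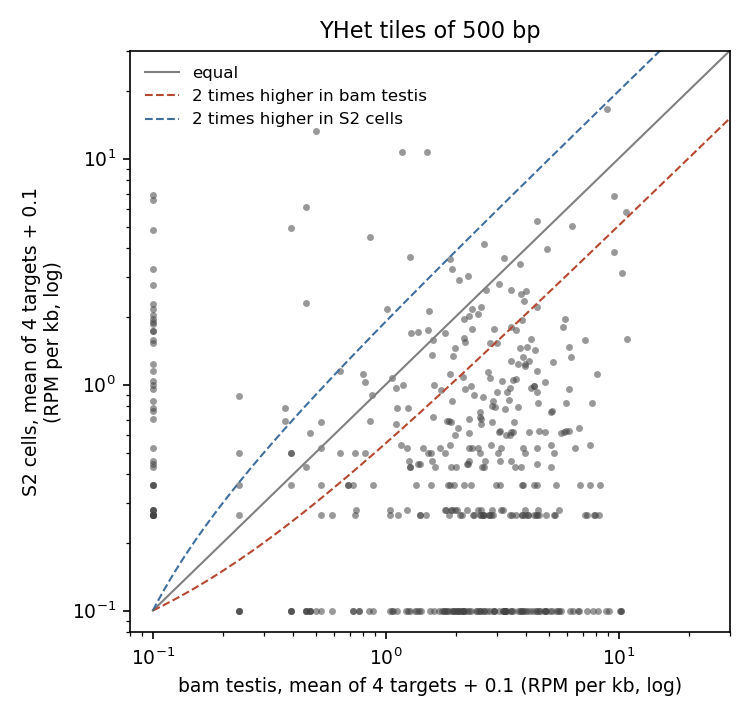
Each point is 1 mappable YHet tile, with the mean density of the 4 targets in *bam* testis on the x axis and in S2 cells on the y axis (RPM per kb plus 0.1, both axes logarithmic). Of the 444 tiles, 325 lie on or below the red line (2 times higher in *bam* testis) and 53 on or above the blue line (2 times higher in S2 cells), and the row at the bottom holds tiles without a read in S2 cells.

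The 53 tiles that were higher in S2 cells were chosen by the densities of both samples, so their reads are given as a description. In S2 cells they held 29.1% of the H3K4me3 reads on YHet, 26.9% of the H3K27me3 reads, 30.8% of the H3K36me3 reads and 36.6% of the Pol II reads. In *bam* testis the same tiles held 0.395% to 1.05% of the YHet reads of each target. This low share follows largely from the choice, since 40 of the 53 tiles had reads in S2 cells only. Their S2 cell reads had no mismatch in 24.3% of cases (123 of 507), compared with 16.7% (185 of 1110) in the other 391 mappable tiles, both below the S2 cell shares on 3LHet.

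Few YHet tiles reached 14 RPM per kb, the density called enriched here, which is the same for every library and comes from a Poisson p under 0.05 in 1 kb at 1000000 reads. For H3K4me3 10 tiles passed in *bam* testis (2.25%, background 10.8%) and 2 in S2 cells (0.450%, background 7.4%). For H3K36me3 8 passed in *bam* testis (1.80%, background 16.6%) and 1 in S2 cells (0.225%, background 16.2%). For H3K27me3 1 tile passed in *bam* testis (0.225%, background 12.4%) and 1 in S2 cells (0.225%, background 20%). For Pol II 1 tile passed in *bam* testis, with 10 reads (0.225%, background 13.2%), and 5 in S2 cells (1.13%, background 11.8%). All 8 shares on YHet were below their background, and they were also below those on 3LHet, which ran from 0.599% for H3K4me3 in S2 cells to 9.87% for H3K36me3 in *bam* testis. With the lowest count at a Poisson p under 0.05 in 500 bp at the depth of each library, which is how the study's methods set a window threshold, 11 Pol II reads were needed in *bam* testis and 0 Pol II tiles passed there, against 5 in S2 cells. This threshold was chosen after seeing the data, and it gave 7 H3K4me3, 7 H3K36me3 and 3 H3K27me3 tiles in *bam* testis, and 2, 1 and 2 tiles of the same targets in S2 cells. The backgrounds of H3K4me3, H3K36me3, H3K27me3 and Pol II were 8.44%, 14.8%, 18.9% and 10.7% in *bam* testis and 7.08%, 16.9%, 24.0% and 11.8% in S2 cells. At a Poisson p under 0.001 the H3K4me3 tiles numbered 0 in *bam* testis (background 4.05%) and 1 in S2 cells (background 6.03%). The order of the samples for H3K4me3 thus turned with the threshold, on YHet and in the background alike, so the turn is no result about YHet.

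The tiles named here are those with the 3 highest densities in each library and the 5 with the highest mean over the 4 *bam* testis libraries, with adjacent tiles joined. Their positions are on YHet of dm3. Each was chosen for a high value in 1 library or sample, so its difference from the other sample is a description, and the intervals do not allow for the choice. The highest H3K4me3 density of *bam* testis lay at 141501 to 142000, with 15 reads at 15 positions and 21.3 RPM per kb (11.9 to 35.2). S2 cells had no read there in any of the 4 ChIP-seq libraries, which for H3K4me3 allows up to 5.90. H3K36me3 of *bam* testis stood at 7.03 and H3K27me3 at 3.75 in this tile, and Pol II had no read in either sample.

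The tiles 122501 to 123000 and 135001 to 135500 were alike in that S2 cells again had no read of any target. At 135001 to 135500, *bam* testis had 17.1 for H3K4me3, 12.9 for H3K36me3, 7.45 for Pol II and 3.22 for H3K27me3. The tile 122501 to 123000 had 14.2 for H3K4me3, 15.2 for H3K36me3, 6.44 for H3K27me3 and 4.47 for Pol II in *bam* testis. Close by, the region 137501 to 138500 held the tile with the highest mean density of the 4 *bam* testis libraries, 10.8. Across this 1-kb region all 4 targets were present in *bam* testis, from 4.56 for H3K27me3 to 14.2 for H3K4me3, and S2 cells had 8 reads in all, none of them without mismatch. Of the 69 *bam* testis reads there, 28 had no mismatch.

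The highest Pol II tile of *bam* testis, at 102001 to 102500, had 14.9 (7.15 to 27.4) for Pol II and 15.6 (7.81 to 28.0) for H3K4me3. In S2 cells the same tile had 5.20 (1.69 to 12.1) for Pol II and 1.60 (0.0405 to 8.91) for H3K4me3. Next to it in rank, the tile 103501 to 104000 had 13.4 for Pol II in *bam* testis and no Pol II read in S2 cells. H3K36me3 of *bam* testis was highest at 336501 to 337000, with 25.8 (16.2 to 39.0) from 22 reads at 11 positions, against 5.31 (2.29 to 10.5) in S2 cells. At 163001 to 163500 it reached 22.3 (13.4 to 34.8) in *bam* testis and 1.99 (0.411 to 5.82) in S2 cells.

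H3K27me3 of *bam* testis was highest at 283501 to 284000, with 15.0 (9.98 to 21.7), against 1.44 (0.174 to 5.20) in S2 cells. The tiles 204001 to 204500 and 149001 to 149500 followed with 13.4 and 12.3 in *bam* testis, and 0.720 and 0 in S2 cells. H3K4me3 of *bam* testis stood at 1.42, 4.27 and 11.4 in these 3 tiles.

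S2 cells had high tiles of their own. The tile 154001 to 154500 had 35.2 (22.1 to 53.3) for H3K4me3 in S2 cells, from 22 reads at 16 positions, against 8.53 (3.13 to 18.6) in *bam* testis. It also had 19.7 (11.9 to 30.8) for Pol II in S2 cells, against 8.94 (3.28 to 19.5) in *bam* testis, and 12 S2 cell RNA-seq reads. For the 4 ChIP-seq targets together, 13 of its 57 reads in S2 cells had no mismatch, and 11 of its 32 reads in *bam* testis. It was the only tile among the 3 highest of S2 cells for H3K4me3, Pol II and RNA-seq alike.

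Pol II of S2 cells was highest at 194501 to 195000, with 41.6, where the adjoining tile 195001 to 195500 was among the 3 highest for H3K36me3 in *bam* testis, with 22.3. Over the joined region, Pol II stood at 1.49 (0.180 to 5.38) in *bam* testis and 23.4 (17.1 to 31.3) in S2 cells, and H3K36me3 at 12.3 (7.62 to 18.8) in *bam* testis and 2.99 (1.37 to 5.67) in S2 cells. The order of the samples was opposite for both targets over this region. Its tiles were chosen for high values of these same targets and samples, so nothing is read from the opposite order. At 227001 to 227500 Pol II had 4.47 (0.922 to 13.1) in *bam* testis and 33.2 (22.7 to 46.9) in S2 cells, and here 20 of the 32 Pol II reads of S2 cells had no mismatch.

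The region 74001 to 75500 was nearly empty in *bam* testis and filled in S2 cells. H3K27me3 stood at 0.536 (0.111 to 1.57) in *bam* testis and 11.8 (8.69 to 15.5) in S2 cells, H3K36me3 at 0.391 (0.00989 to 2.18) in *bam* testis and 10.8 (8.02 to 14.3) in S2 cells, and Pol II at 0 (up to 1.83) in *bam* testis and 7.27 (4.50 to 11.1) in S2 cells. Of its 125 S2 cell ChIP-seq reads, 34 had no mismatch. The tile 41001 to 41500 followed the same pattern, with 1 ChIP-seq read in *bam* testis and 32 in S2 cells. H3K27me3 of S2 cells was highest at 215001 to 215500, with 4.29 (1.85 to 8.45) in *bam* testis and 16.5 (10.5 to 24.8) in S2 cells. The same tile was among the 3 highest of *bam* testis for Pol II, at 11.9. The other H3K4me3 tiles of S2 cells, 302501 to 303000 with 17.6 and 341501 to 342000 with 11.2, had 0 and 1.42 in *bam* testis.

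RNA-seq of S2 cells gave 92 reads on YHet out of 7289715, a density of 0.0568 (0.0458 to 0.0697), compared with 0.489 on 3LHet and 8.77 on the autosomal arms. They fell in 17 of the 444 mappable tiles (3.83%, 2.40 to 6.05), against 20.4% of tiles on 3LHet, and 69 of them (75%) were in 5 tiles. The fullest tile, 342501 to 343000, held 24 reads at 11 positions, none of them without mismatch, and no *bam* testis ChIP-seq read. The tile 337501 to 338000 held 15 reads, 11 without mismatch, and had 8.53 for H3K4me3 in *bam* testis and none in S2 cells. Of the 17 tiles with RNA-seq reads, 13 also had Pol II reads of S2 cells (76.5%), compared with 154 of the other 427 mappable tiles (36.1%). RNA-seq of *bam* testis was not analysed here.

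Along YHet, *bam* testis was densest in the 50-kb stretch from 100001 to 150000, with a mean of 4.29 over the 4 targets and 6.26 for H3K4me3, against 0.652 and 0.343 in S2 cells. Its lowest stretch was from 300001 to the end, with a mean of 1.16 in *bam* testis and 1.04 in S2 cells. There H3K36me3 was 2.08 in *bam* testis and 1.13 in S2 cells, while Pol II was 0.848 in *bam* testis and 1.50 in S2 cells, so the targets differed in direction. This last stretch also held 68 of the 92 RNA-seq reads of S2 cells. In the other 6 stretches the mean of *bam* testis was between 2.51 and 6.57 times that of S2 cells. The 250 YHet tiles without any ChIP-seq read formed 38 runs, the longest from 245001 to 254000 (9 kb), and the 10 longest runs held 59.2% of them.

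The profiles along YHet were more alike within a sample than between samples. As a description over the 444 mappable tiles, Spearman's rho between targets was 0.273 to 0.505 in the 6 pairs of *bam* testis libraries and 0.172 to 0.398 in the 6 pairs of S2 cell libraries. For the same target between *bam* testis and S2 cells it was -0.11 to 0.101, compared with 0.305 to 0.681 over the 4004 mappable tiles of 3LHet. Tiles of 1 library share its depth and the uniqueness of their sequence, which enters all of these values. Most counts per tile on YHet were small, with a median of 1 to 3 reads in *bam* testis and 0 to 1 in S2 cells, so these values rest on sparse data.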

How the data were processed

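ELAND was used by the authors to place ChIP-seq reads on dm3 with no more than 2 mismatches, and reads with more than 1 location were dropped. The deposited files give 1 read per line with start and end positions, a mismatch class and a strand, so the values analysed are read positions with no normalization, and every count was made here. The RNA-seq file holds 36-bp reads. The paper names ELAND in a section on 25-bp reads, and its RNA-seq section names no aligner. At most 3 copies of a read with the same sequence, 5' end and strand were kept, as the study's methods describe. This left between 1250028 and 3729366 ChIP-seq reads per library and 7289715 RNA-seq reads. The 5' ends of ChIP-seq reads were moved 80 bp inward, and those of RNA-seq reads were not moved. Reads were counted in 500-bp tiles and divided by all kept reads of the library. Only uniquely mapped reads were deposited, so repeated Y sequence was not measured, and an input library was not used here. The *bam* testis libraries had 2.12% to 2.80% of their kept reads on the unplaced sequence U and the S2 cell files had 0 there and on M, so the set of sequences used for alignment may differ between samples. Reads of 23 to 25 bp were deposited for ChIP-seq, except that 45.1% of the *bam* testis H3K27me3 reads were 29 bp. Removed copies on YHet were 0% to 15.3% of deposited reads in *bam* testis and 7.16% to 10.8% in the ChIP-seq libraries of S2 cells.

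The threshold of 14 is the smallest number of reads in 1 kb whose Poisson p is below 0.05 when 1000000 reads fall on 120 Mb. Densities have exact Poisson intervals, shares Wilson intervals, ratios exact conditional intervals and quotients of ratios normal intervals on the log scale, all at 95%, and none covers variation between cultures or flies. Groups came from the sample labels. The tile rule, the comparisons and the rule for named tiles were chosen with earlier results of these data known. The counting was tested on simulated data. No genome or annotation of dm3 was used, so no sequences and no gene names are given. Alternatives were other limits on copies, no shift, reads without mismatch, other totals, tile sizes, thresholds and comparison sequences, and thinning, of which thinning for the 2-fold call and the Poisson threshold at each library's depth were added after the data were seen. Python 3.11.15 was used with numpy 2.4.6, pandas 2.3.3, scipy 1.17.1 and matplotlib 3.10.9.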

Additional observations from a re-analysis of the deposited data

How the results depend on the processing

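No paired analysis was possible because each sample had 1 library per target. Of 325 values recomputed under the alternatives, 221 stayed within their interval or within 1.5 times their count, 104 moved and 0 reversed. Only ratios could be labelled reversed, so the turned order of H3K4me3 enriched tiles is not among these. Ratios of *bam* testis over S2 cells could not change without the shift, with 1000-bp tiles or over all tiles. Shares of tiles with reads could not change with the limit on copies. Such values count as stayed, so the tally does not measure robustness. The cause of a move was not tested unless fewer reads or tiles are its own construction. Targets run in the order H3K4me3, H3K27me3, H3K36me3 and Pol II. With reads without mismatch alone (which also leaves fewer mappable tiles), the YHet ratio of *bam* testis over S2 cells moved to 23.0, 4.66, 10.3 and 3.69, and YHet over 3LHet in S2 cells to 0.144, 0.0948, 0.0809 and 0.203. YHet tiles with reads then made up 67.2%, 61.4%, 30.8% and 44.7% in *bam* testis and 3.03%, 14.1%, 14.4% and 10.4% in S2 cells, the H3K36me3 tiles at least 2 times higher in *bam* testis 30.3%, and enriched tiles numbered 20, 7, 46 and 3 in *bam* testis and 1 and 2 for H3K4me3 and H3K27me3 in S2 cells. The 46 H3K36me3 tiles needed only 2 reads each, and the backgrounds of the 4 *bam* testis counts were 13.5%, 14.1%, 22.8% and 13.9%, and that of the 2-fold call 29.5%. The backgrounds of the S2 cell counts for H3K4me3 and H3K27me3 were 7.13% and 23.2%. Without the 5 fullest tiles the H3K4me3 ratio was 7.30, and YHet over 3LHet in S2 cells was 0.355, 0.118, 0.163 and 0.342. Restricted to tiles with reads in all 4 libraries of a sample, the ratio was 4.70 for H3K36me3 and 2.38 for Pol II, YHet over 3LHet was 0.471 for H3K27me3 and 0.616 for Pol II in *bam* testis and 0.156 for H3K36me3 and 0.342 for Pol II in S2 cells, and 0 H3K27me3 tiles of *bam* testis and 1 H3K4me3 tile of S2 cells were enriched. A tile passed this filter through either sample, and 195 YHet tiles had reads in all 4 libraries of *bam* testis but 29 in those of S2 cells. Most tiles therefore passed through *bam* testis, where they are denser, so nothing is read from these larger ratios. The median tile gave an H3K36me3 ratio of 3.53, and YHet over 3LHet of 0.5 for H3K4me3, 0.667 for H3K36me3 and 0.5 for Pol II in *bam* testis, and 0.333 for H3K36me3, 0 for H3K27me3 and 0 for Pol II in S2 cells. It gave no ratio for the other 3 targets, or for H3K4me3 over 3LHet in S2 cells, because the median below the line was 0. Over all tiles, mappable or not, YHet over 3LHet was 0.512, 0.405, 0.471 and 0.463 in *bam* testis and 0.353, 0.107, 0.151 and 0.311 in S2 cells. Over the 6 arms in place of 3LHet, it was 0.400, 0.251, 0.403 and 0.262 in *bam* testis and 0.0625, 0.0850, 0.0975 and 0.136 in S2 cells, and over the other autosomal heterochromatic sequences 0.536 for H3K27me3 in *bam* testis and 0.329, 0.166 and 0.319 for H3K4me3, H3K36me3 and Pol II in S2 cells. With 1 copy of each read, YHet over 3LHet was 0.337 for Pol II in S2 cells, the share without mismatch 37.3% for H3K27me3 in *bam* testis, and enriched tiles 0 for H3K27me3 and 0 for Pol II in *bam* testis and 1, 0 and 3 for H3K4me3, H3K36me3 and Pol II in S2 cells. With all copies, YHet over 3LHet was 0.661 and the share without mismatch 21.1% for H3K36me3 in *bam* testis, the RNA-seq density was 0.0438, and H3K27me3 had 2 enriched tiles in each sample. With reads of at most 25 bp, YHet over 3LHet was 0.541 for H3K27me3 in *bam* testis. Enriched tiles were few and moved with most settings. No background was computed with other copy limits, the stricter tile filter, 1000-bp tiles, the total of the arms, no shift or thinning. Nothing about YHet is therefore read from the enriched counts under those settings. With 1000-bp tiles they numbered 3, 0, 2 and 0 in *bam* testis and 1, 0, 0 and 2 in S2 cells. At a Poisson p under 0.001 they numbered 0, 0, 3 and 0 in *bam* testis (backgrounds 4.05%, 9.06%, 8.71% and 5.03%). In S2 cells they numbered 1, 0 and 3 for H3K4me3, H3K27me3 and Pol II (backgrounds 6.03%, 13.6% and 7.51%). At a Poisson p under 0.05 in 500 bp at the depth of each library, an alternative chosen after seeing the data, enriched tiles numbered 3 for H3K27me3 (background 18.9%) and 0 for Pol II (background 10.7%) in *bam* testis. They numbered 2 for H3K27me3 (background 24.0%) in S2 cells. With the reads of the arms as total they were 2 for H3K27me3 and 2 for Pol II in *bam* testis and 2 for H3K27me3 in S2 cells, without the shift 2 and thinned to the shallowest library 3 for H3K27me3 in S2 cells. Thinning left YHet tiles with reads at 58.9% for H3K27me3 and 68.7% for H3K36me3 in *bam* testis, and at 24.4%, 29.7% and 31.7% for H3K27me3, H3K36me3 and Pol II in S2 cells. At 2 times higher in *bam* testis by the mean of the 4 targets, 73.8% of tiles were called after thinning, an alternative chosen after seeing the data. By target the thinned shares were 65.5%, 49.7%, 60.7% and 50.1%, where H3K27me3 had 66.0% with all kept reads. Backgrounds after thinning were not computed. A single tile held 0 to 40 reads, which limits every named tile.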

Other observations

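XHet, the heterochromatic sequence of the X chromosome, had a lower summed density in *bam* testis than in S2 cells for all 4 targets. By tile, the order of the samples differed between targets. The density was 4.07 for H3K4me3, 4.68 for H3K36me3, 3.19 for H3K27me3 and 3.58 for Pol II in *bam* testis, and 11.1, 13.0, 22.2 and 39.3 for the same targets in S2 cells. In S2 cells 39.2% of the deposited H3K27me3 reads and 91.0% of the deposited RNA-seq reads on XHet were copies beyond the limit of 3. The 10 fullest XHet tiles held 16.6% to 19.1% of the kept reads of a target there in *bam* testis and 42.9% to 73.6% in S2 cells. Of the 295 mappable XHet tiles, 77 were at least 2 times higher in *bam* testis by the mean of the 4 targets (26.1%, background 25.7%). In S2 cells 69 were higher (23.4%, background 7.6%). By target, tiles at least 2 times higher in *bam* testis made up 56.3% for H3K4me3, 25.8% for H3K36me3, 23.4% for H3K27me3 and 29.5% for Pol II. Their backgrounds were 67.8%, 51.5%, 31.5% and 34%. Tiles at least 2 times higher in S2 cells made up 14.2%, 40.0%, 29.8% and 28.1% for the same targets, with backgrounds of 9.72%, 17.1%, 13.4% and 17.3%. By target, the XHet shares were thus below background for *bam* testis and above it for S2 cells, though the *bam* testis Pol II interval (24.6 to 34.9) held its background. For H3K27me3 this was shared by 2LHet, 2RHet, 3LHet and 3RHet. There 16.9% to 22.7% of tiles were higher in *bam* testis and 24.9% to 36.1% in S2 cells. For H3K4me3 the tiles higher in S2 cells made up 3.97% to 8.20% on these sequences, below background. The median XHet tile had 2.84 for H3K4me3, 2.34 for H3K36me3, 2.15 for H3K27me3 and 2.98 for Pol II in *bam* testis, and 0, 1.99, 2.88 and 2.08 in S2 cells.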
